A study of Chlamydomonas reinhardtii with 6 samples.

Results

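The genes described here are 39 members of the RNA machinery of Chlamydomonas reinhardtii, a unicellular green alga. They were chosen by the functional category in the authors' deposited table of changed genes, which had to begin with RNA processing, RNA binding or RNA transcription. The members are 39 of 2596 genes in that table and of 13452 genes in the expression table. By category they comprise 4 genes of transcription, 3 of splicing, 9 RNA helicases, 4 ribonucleases, 6 genes of other RNA processing and 13 RNA binding genes.

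The libraries came from 6 independent stationary cultures in an acetate medium, all of strain CC-125 (137c mt+), a wild-type laboratory strain. The UV-B group comprised 3 cultures that received narrowband UV-B for 1 h through a filter with its edge at 311 nm. The no UV-B group comprised 3 cultures beside the same lamps with the UV-B blocked by a filter with its edge at 360 nm. All 6 stood in weak white light of 3.6 µmol per square metre and second, and the lamps gave 0.07 mW/cm2 of UV-B. The filters differ in all the light they pass between 311 nm and 360 nm. The effects of UV-B and of any other light in that span cannot be told apart.

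A messenger RNA is made by RNA polymerase II, while RNA polymerase I makes the precursor of the large ribosomal RNAs. Transcripts are then spliced, unwound and remodelled by ATP-driven DEAD-box helicases, chemically modified, bound by proteins and finally degraded from either end by exonucleases. In a green alga this work is done in the nucleus and cytosol and also in the chloroplast and mitochondria, where many of the factors resemble bacterial ones.

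The members were chosen by the contrast that is described here. The authors' deposited table holds only genes changed at least 2-fold, with an absolute log2 fold change of 1.00 or more. The direction and size of each member's difference are therefore a description and carry no test. Values are normalised read counts: the authors divided each gene's reads by an effective library size, which gives numbers close to CPM. They are not divided by gene length, so levels are not compared between genes. Differences are UV-B minus no UV-B on the log2(value + 1) scale, with the standard error of a fit to all genes (limma). On this scale the change of a low gene comes out too small. Reads recovered from these values and summed over the 13452 genes numbered 9529134 to 11214409 in the UV-B libraries. In the no UV-B libraries they numbered 7868534 to 11972794. Reads outside these genes are not in the sums. In bulk samples a change in RNA per cell and a change in the share of cells that hold it cannot be told apart.

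Of the 39 members, 28 were higher in the UV-B cultures and 11 were lower. Means in UV-B cultures were 2.05-fold to 6.38-fold higher among the 28, and means in no UV-B cultures were 2.02-fold to 3.94-fold higher among the 11. In all 39 members the groups were separate, every UV-B culture lying above or below every no UV-B culture. This held for 63.2% of all genes tested, for 31.7% with UV-B higher and for 31.6% with UV-B lower. All 39 passed an adjusted p of 0.05 in limma, as 59.0% of all 13415 genes tested did, 29.5% with UV-B higher and 29.6% with UV-B lower. Since the members were listed for changing in this contrast, neither count says anything about them. The share of members higher in UV-B was 71.8%, against 49.8% of the other 2557 genes of the authors' deposited table and 52.8% of its other 845 genes with a functional category. These shares are descriptions.

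The differences of the members were moderate among the listed genes. The median absolute log2 fold change in the authors' deposited table was 1.30 for the members and 1.37 for the other listed genes. In that table the log2 fold changes of all listed genes ran from -6.17 to 10.06. On the log2(value + 1) scale the median absolute difference was 1.20 for the members and 0.40 for all genes tested. At least a 2-fold difference on this scale was reached by 29 members and by 13.1% of all genes tested. At least a 4-fold difference on this scale was reached by 2 members, both of them helicases (Cre02.g118300 and Cre01.g021600), and over all genes by 2.12%. That count rests on a narrow margin, since Cre01.g021600 lay at 2.01. The count was 1 without UV-B replicate 2, 1 without no UV-B replicate 3, 0 with a pseudocount of 5 and 5 with edgeR on recovered reads. The 5 with edgeR included members that are not helicases: Cre17.g712000 (2.20), Cre08.g384950 (2.16) and g17720 (2.13).

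**Figure D1:**
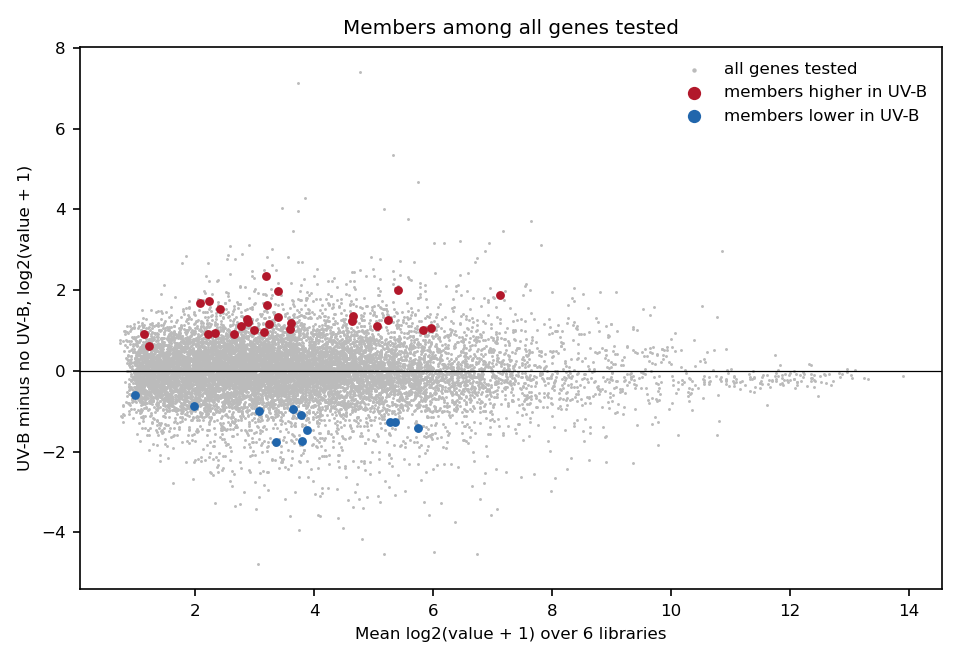
Difference between UV-B and no UV-B (vertical axis, log2(value + 1)) against the mean level over 6 libraries (horizontal axis, log2(value + 1)) for each of 13415 genes tested (grey), with the 28 members higher in UV-B in red and the 11 lower in blue. The members lie between -1.77 and 2.36, inside the range of all genes.

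The 4 genes of the transcription category were all higher in UV-B cultures. Cre01.g018000, described as a subunit of RNA polymerase I, the enzyme of ribosomal RNA synthesis, had the largest difference of the category. It had normalised read counts of 14.9, 15.9 and 16.3 in the UV-B cultures, against 5.70, 5.41 and 5.66 in the no UV-B cultures, a difference of 1.34 ± 0.13 (SE). The no UV-B cultures were almost equal, and each UV-B culture was far above them. Cre02.g102800 carries the domain of Rpb8, a small subunit that the nuclear RNA polymerases share in yeast. It had normalised read counts of 17.2, 17.4 and 17.6 in the UV-B cultures, against 7.24, 8.31 and 5.74 in the no UV-B cultures, a difference of 1.20 ± 0.13. Here the UV-B cultures were almost equal and the no UV-B cultures were spread. Cre10.g419750, a further RNA polymerase II subunit, averaged 5.98 ± 0.565 in UV-B and 2.63 ± 0.401 in no UV-B cultures (SD, n = 3 each).

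The fourth gene of the category, Cre17.g698950, carries the domain DUF367. In yeast a protein with this domain modifies ribosomal RNA, so its place under transcription rests on the category alone. It was a low gene, with 19, 24 and 23 reads in the UV-B libraries and 4, 3 and 13 in the no UV-B libraries. Its normalised read counts averaged 2.06 ± 0.367 in UV-B and 0.639 ± 0.384 in no UV-B cultures (SD, n = 3 each). It reached a value of 1 in all 3 UV-B libraries and in 1 no UV-B library, so it passed the filter on low values (a value of 1 in 3 libraries) through the group where it was higher.

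The 3 splicing genes were divided, with 1 higher and 2 lower in UV-B. Cre17.g712000, described as a serine/arginine-rich pre-mRNA splicing factor, belongs to a family that helps to select splice sites. In normalised read counts it had 18.5, 20.2 and 20.7 in the UV-B cultures, against 4.06, 4.35 and 4.49 in the no UV-B cultures, a 4.60-fold higher mean and a difference of 1.97 ± 0.13. Both groups were tight beside the gap between them. Cre13.g573650, placed under splicing without any description, had normalised read counts of 7.82, 6.09 and 5.96 in the UV-B cultures, against 27.0, 23.0 and 23.0 in the no UV-B cultures. Its difference was -1.74 ± 0.12, the second largest in that direction among the members. Cre12.g553750 carries the KH domain of the SF1 type, which in yeast and animals marks the protein that binds the intron branch point, and an RNA recognition motif. It had normalised read counts of 6.50, 4.23 and 4.47 in the UV-B cultures, against 10.4, 11.3 and 11.1 in the no UV-B cultures, a difference of -0.999 ± 0.15. The UV-B cultures differed among themselves, with replicate 1 nearest to the no UV-B cultures.

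The sum over the splicing category was 32.8, 30.5 and 31.1 in the UV-B cultures, against 41.5, 38.7 and 38.7 in the no UV-B cultures. This sum hides opposite differences of its genes.

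**Figure D2:**
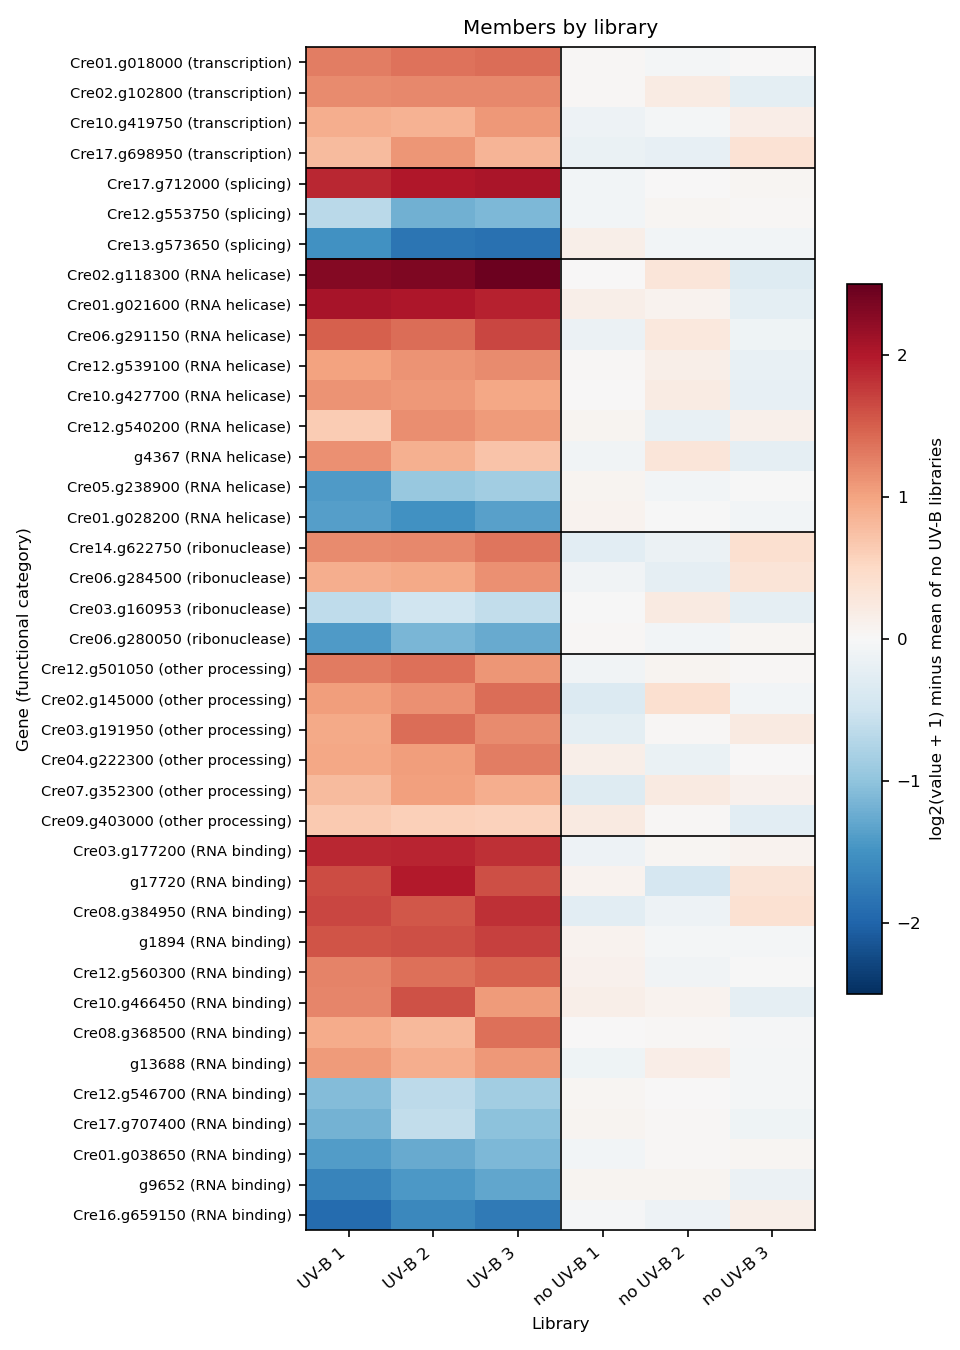
Each row is 1 of the 39 members, grouped by functional category, and each column is 1 library. Colour gives log2(value + 1) minus the mean of the no UV-B libraries. The transcription and other processing rows are red in each UV-B library, and the splicing, helicase, ribonuclease and RNA binding blocks hold both colours.

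On the log2(value + 1) scale the 2 largest positive differences of all members were in helicases. The largest negative ones were in RNA binding and splicing genes. By log2 fold change in the authors' deposited table, the helicase Cre02.g118300 was also first, at 2.74. There the splicing gene Cre17.g712000 (2.20) and the RNA binding genes Cre08.g384950 (2.16) and g17720 (2.12) came before the helicase Cre01.g021600 (2.08). Of 9 helicase genes, 7 were higher in UV-B and 2 were lower, and all 9 carry the DEADc domain, the ATP-binding part of a DEAD-box helicase, in their domain description. Cre02.g118300, described as a DEAD box RNA helicase with a GUCT domain, a module found in a small group of these enzymes, had the largest difference of any member. Its normalised read counts were 18.7, 19.4 and 21.1 in the UV-B cultures, against 3.07, 3.96 and 2.25 in the no UV-B cultures. The UV-B mean was 6.38-fold higher, and the difference was 2.36 ± 0.15. These values rest on 188 to 255 reads per UV-B library and 27 to 30 reads per no UV-B library.

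Cre01.g021600, known from its domains only, had normalised read counts of 87.6, 85.0 and 79.8 in the UV-B cultures, against 22.4, 21.5 and 17.0 in the no UV-B cultures, a difference of 2.01 ± 0.09. Cre06.g291150, another DEADc-domain gene, had 7.92, 7.32 and 9.03 in the UV-B cultures, against 1.86, 2.77 and 1.91 in the no UV-B cultures, a difference of 1.52 ± 0.17. These 3 helicases stood above the other higher ones, whose differences ran down to 0.92. Cre10.g427700 had the highest counts of the category. This gene had normalised read counts of 92.6, 91.0 and 83.8 in the UV-B cultures, against 42.6, 48.6 and 36.4 in the no UV-B cultures, and the difference was 1.06 ± 0.09. Its UV-B values were about equal, and its no UV-B values were more spread. Cre12.g539100 averaged 48.0 ± 2.89 in UV-B and 21.9 ± 2.71 in no UV-B cultures, and g4367 averaged 5.44 ± 0.986 in UV-B and 2.42 ± 0.658 in no UV-B cultures (SD, n = 3 each).

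The lower helicases were Cre01.g028200 and Cre05.g238900. Cre01.g028200, whose text joins a pair of DEAD-box helicase annotations, had normalised read counts of 32.5, 29.5 and 33.3 in the UV-B cultures, against 91.7, 85.4 and 82.3 in the no UV-B cultures. The no UV-B mean was 2.72-fold higher, and the difference was -1.42 ± 0.08. Cre05.g238900 had 6.50, 9.39 and 9.94 in the UV-B cultures, against 20.1, 18.2 and 19.0 in the no UV-B cultures, a difference of -1.08 ± 0.13. It is also placed under initiation of protein synthesis, the step in which the DEAD-box helicase eIF4A acts. The other member with that second category, Cre12.g540200, lay in the opposite direction, with 11.6 ± 2.34 in UV-B and 5.44 ± 0.723 in no UV-B cultures (SD, n = 3 each).

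DEAD-box genes share long stretches of similar sequence. How the authors' counting treated reads that match several genes was not stated, which leaves the split of reads among such genes uncertain. The sum over the 9 helicases was 306.2, 309 and 305 in the UV-B cultures, against 212, 213 and 186 in the no UV-B cultures. Like the splicing sum, it hides opposite differences of its genes. It holds only genes listed as changed, so it does not settle how reads were split.

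**Figure D3:**
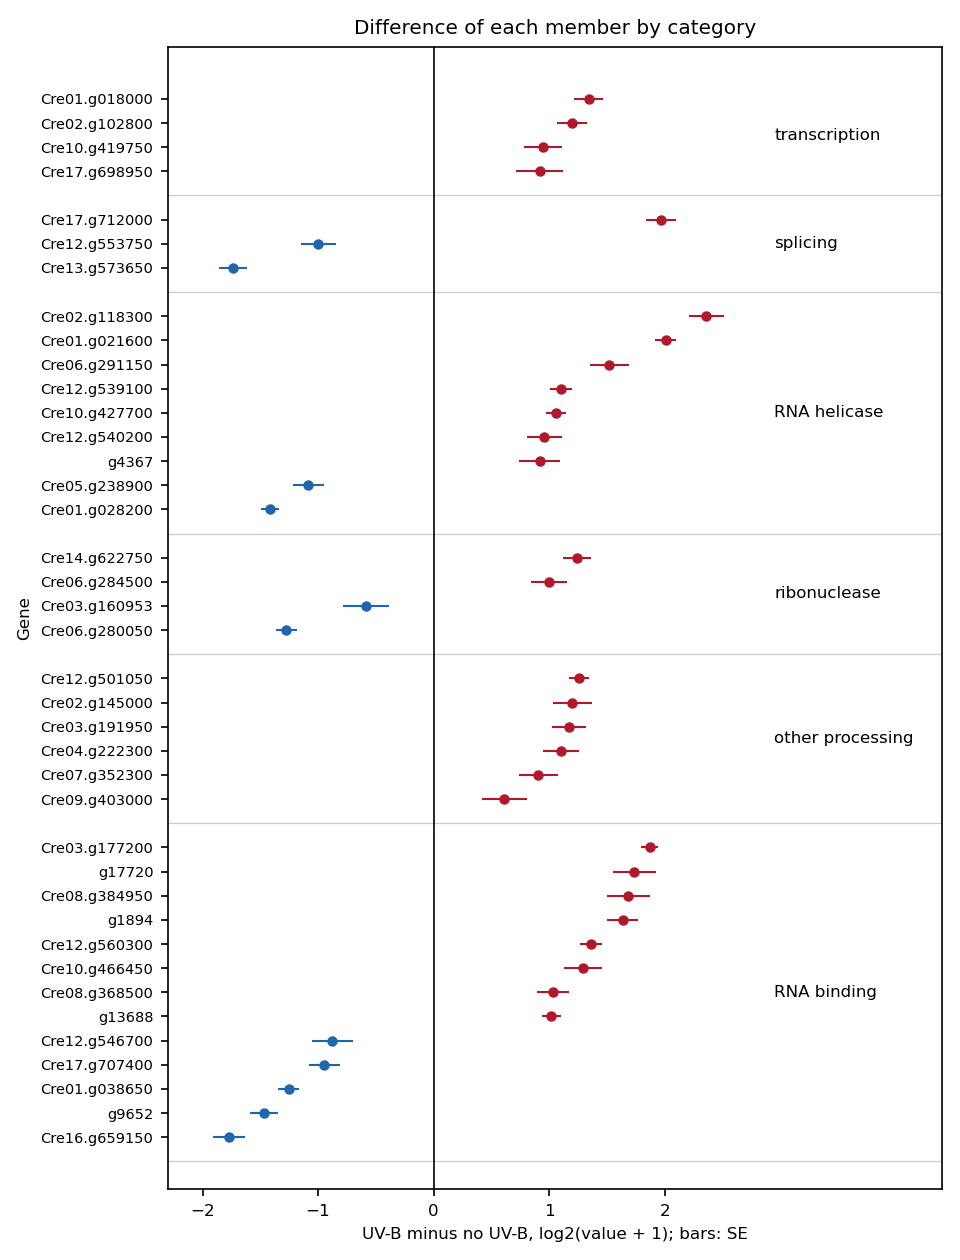
Difference of each member, UV-B minus no UV-B on the log2(value + 1) scale (horizontal axis), with bars for the standard error, ordered by category from top to bottom. Red points are higher and blue points lower in UV-B. The helicases span -1.42 to 2.36, and the 6 genes of other processing lie between 0.61 and 1.26.

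The 4 genes of the ribonuclease category were 2 higher and 2 lower in UV-B. The enzymes known by name, one for each end of an RNA, lay in opposite directions. Cre06.g280050 is described as a single-stranded RNA exonuclease that works from the 5′ end and carries the domain of XRN1, the exonuclease that degrades decapped messenger RNA in yeast. In the UV-B cultures it had normalised read counts of 21.5, 26.4 and 24.0, against 60.3, 56.3 and 61.0 in the no UV-B cultures, a difference of -1.27 ± 0.09. Every UV-B culture was far below every no UV-B culture. Cre06.g284500 is described as an exoribonuclease of the RNase PH type, a component of the exosome, the complex that degrades and trims RNA from the 3′ end. It averaged 10.3 ± 0.929 in UV-B and 4.70 ± 1.14 in no UV-B cultures (SD, n = 3 each).

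The other ribonuclease genes are less certain. Cre14.g622750 averaged 37.1 ± 2.43 in UV-B and 15.5 ± 4.30 in no UV-B cultures (SD, n = 3 each), and no UV-B replicate 3, at 20.4, stood above the other no UV-B values of 12.4 and 13.6. Its domain description names DUF393 and no nuclease domain. Cre03.g160953 carries a ribonuclease T2 domain together with domains of a membrane ABC transporter. It had 6, 7 and 7 reads in the UV-B libraries and 13, 14 and 13 in the no UV-B libraries. It reached a value of 1 in the no UV-B libraries only, so it too passed the filter through the group where it was higher.

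All 6 genes of the other processing category were higher in UV-B, with differences from 0.61 to 1.26. By domain, 3 of them resemble bacterial factors that mature or modify RNA. Cre02.g145000 carries the domain of RbfA, a protein that in bacteria helps the small ribosomal subunit to mature. It averaged 10.2 ± 1.45 in UV-B and 3.97 ± 1.31 in no UV-B cultures. Cre03.g191950 carries the domain of RimM, which in bacteria acts on the same subunit, and averaged 13.3 ± 2.18 in UV-B and 5.34 ± 1.02 in no UV-B cultures (SD, n = 3 each). Cre07.g352300 carries the domain of SpoU, a family of RNA methyltransferases. Its normalised read counts were 6.88, 8.25 and 7.62 in the UV-B cultures, against 2.63, 4.35 and 3.91 in the no UV-B cultures, a difference of 0.91 ± 0.17.

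Cre09.g403000 is described as a non-canonical poly(A) polymerase and matches TRF4, which in yeast adds short tails that mark nuclear RNA for the exosome. It was low, with 21, 18 and 22 reads in the UV-B libraries and 11, 7 and 7 in the no UV-B libraries. Like Cre17.g698950, it reached a value of 1 in 3 UV-B libraries and 1 no UV-B library, and so passed the filter through the group where it was higher. Its difference of 0.61 ± 0.19 was the smallest among the higher members. Cre04.g222300, without description, averaged 9.01 ± 1.19 in UV-B and 3.66 ± 0.501 in no UV-B cultures (SD, n = 3 each). Cre12.g501050 had the largest difference of the category but is described as an aldehyde or histidinol dehydrogenase, which is no RNA enzyme. The normalised read counts were 59.5, 62.8 and 51.5 in the UV-B cultures, against 22.0, 24.7 and 24.0 in the no UV-B cultures, a difference of 1.26 ± 0.09. Without this gene, the category comprised 5 genes, each of them higher in UV-B.

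Of the 13 RNA binding genes, 8 were higher in UV-B and 5 were lower. Cre03.g177200 encodes the C3 subunit of CHLAMY1, a circadian RNA-binding protein of this alga that binds UG repeats in messenger RNAs. It had the highest counts of all members. Normalised read counts were 268, 271 and 256 in the UV-B cultures, against 65.2, 74.0 and 76.2 in the no UV-B cultures, a 3.69-fold higher mean and a difference of 1.87 ± 0.07. The spread within each group was small beside the gap between them.

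The next 3 were low or moderate genes. The domain text of g17720 is SR alone, which does not tell its work, so its place here rests on the category. Its normalised read counts were 6.97, 9.18 and 6.87 in the UV-B cultures. They were 1.75, 0.924 and 2.25 in the no UV-B cultures, a difference of 1.74 ± 0.19. Cre08.g384950, without description, had 6.60, 5.98 and 7.37 in the UV-B cultures, against 0.987, 1.19 and 2.08 in the no UV-B cultures, a difference of 1.68 ± 0.18. No UV-B replicate 3 was the highest of its group in both genes, with 27 and 25 reads. The gene g1894 carries the domain of RsuA, a bacterial enzyme that turns a uridine of ribosomal RNA into pseudouridine, so its domain is that of an RNA-modifying enzyme. It had 14.7, 15.1 and 16.2 in the UV-B cultures, against 4.61, 4.09 and 4.08 in the no UV-B cultures, a difference of 1.64 ± 0.14.

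The remaining higher genes of this category are known mostly from the category alone. Cre12.g560300, which carries an RNA recognition motif, averaged 39.5 ± 3.28 in UV-B and 14.8 ± 1.04 in no UV-B cultures (SD, n = 3 each). Cre10.g466450 averaged 10.6 ± 2.24 in UV-B and 3.71 ± 0.626 in no UV-B cultures, and Cre08.g368500 averaged 16.6 ± 3.78 in UV-B and 7.45 ± 0.209 in no UV-B cultures. The gene g13688 lay just inside the authors' threshold, with a log2 fold change of 1.06 in the authors' deposited table. It had normalised read counts of 82.8, 74.3 and 84.7 in the UV-B cultures, against 36.1, 44.2 and 37.8 in the no UV-B cultures.

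Of the lower RNA binding genes, 4 carry no description. Cre16.g659150 had the largest difference in that direction of all members. The gene had normalised read counts of 3.96, 5.16 and 4.56 in the UV-B cultures, against 17.4, 16.4 and 20.04 in the no UV-B cultures, a difference of -1.77 ± 0.14. For g9652 they were 6.79, 8.05 and 9.03 in the UV-B cultures, against 24.8, 24.8 and 21.4 in the no UV-B cultures, a difference of -1.47 ± 0.12. Cre01.g038650 had 23.3, 25.6 and 28.3 in the UV-B cultures, against 59.3, 64.0 and 64.6 in the no UV-B cultures, a difference of -1.26 ± 0.09. The groups were far apart in all 3 genes. Cre12.g546700 averaged 1.93 ± 0.433 in UV-B and 4.34 ± 0.170 in no UV-B cultures (SD, n = 3 each).

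Cre17.g707400 lay nearest to the authors' threshold of all members, with a log2 fold change of -1.01 in the authors' deposited table. It matches GAL11, in yeast a subunit of Mediator, the complex that links activators to RNA polymerase II, and so is placed under RNA binding by category only. Its normalised read counts were 6.60, 10.2 and 7.45 in the UV-B cultures, against 17.2, 16.6 and 15.1 in the no UV-B cultures. Genes just outside the threshold cannot be given, because the categories used here cover only genes that the authors list as changed.

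**Figure D4:**
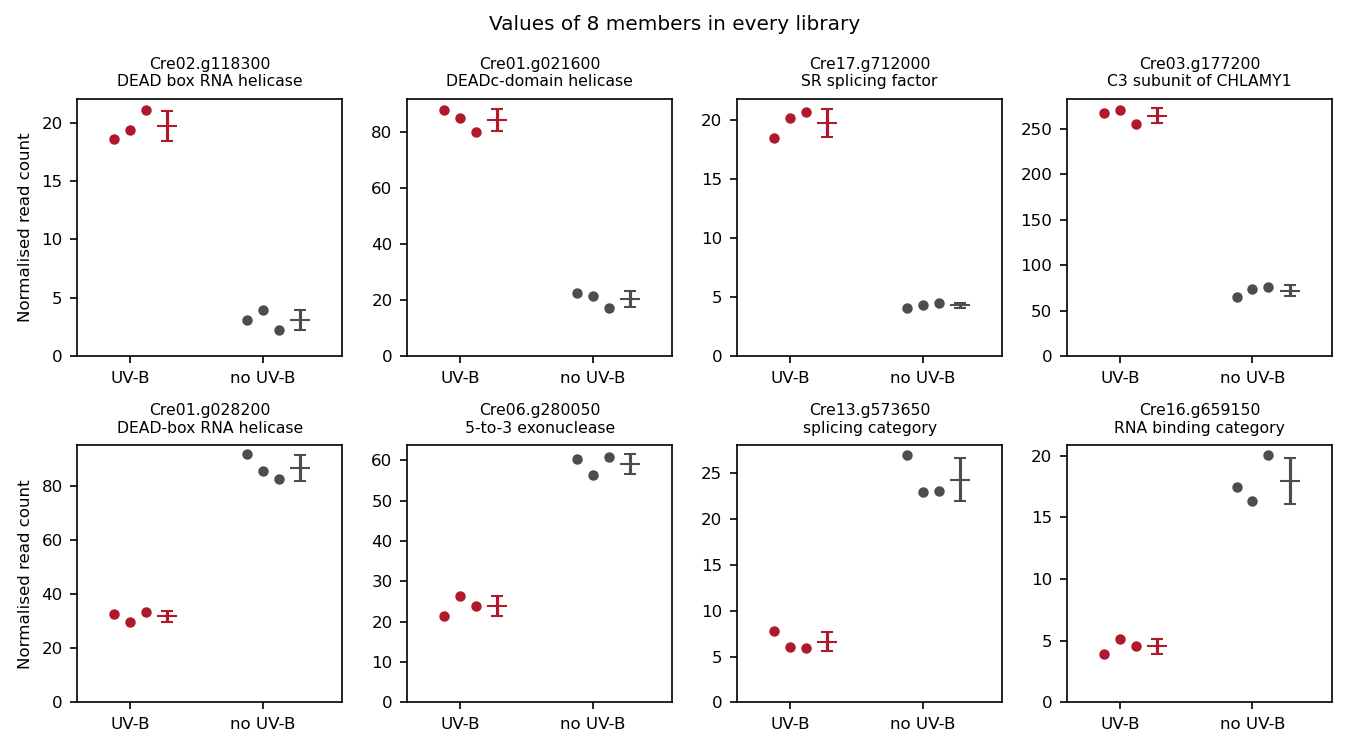
Normalised read counts (vertical axes, each from 0) of 8 members in every library, UV-B at the left and no UV-B at the right of each panel. Points are cultures, and the bar beside them is the mean with its SD (n = 3). The upper row holds members higher in UV-B and the lower row members lower in UV-B, and in each panel the groups are separate.

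The members varied between cultures of a group about as much as all genes tested. The median within-group SD of log2(value + 1) was 0.14 for the members and 0.13 for all genes tested, and the largest among the members was 0.39. Summed over the 28 higher members, the normalised read counts were 907, 926 and 915 in the UV-B cultures, against 309.9, 341 and 320.2 in the no UV-B cultures. Without Cre03.g177200 the sums were 639, 655 and 659.7 in the UV-B cultures, against 245, 267 and 244 in the no UV-B cultures. For the 11 lower members they were 118, 128 and 129.5 in the UV-B cultures, against 334, 322 and 323 in the no UV-B cultures. No culture approached the other group in these sums, which the choice of members and their split by direction largely fix in advance.

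Among the UV-B cultures, replicate 1 was most often the low one. It was above the mean of its group in 7 of the 28 higher members and in 3 of the 11 lower members, while replicate 3 was above it in 19 of the 28 and 6 of the 11. The mean deviation of replicate 1 from its group was -0.06 for the higher and -0.08 for the lower members on the log2 scale, which is small beside the differences between the groups.

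Most of the described members carry text or domains of RNA work, as their category says. A text description is given for 11 members and a domain description for 26, and 10 members carry neither and are known from the category alone, 8 of them RNA binding genes. The exceptions were Cre12.g501050, Cre14.g622750, Cre03.g160953 and Cre17.g707400, whose text or domains name, wholly or in part, other work. For g17720 the domain text, SR alone, does not tell its work.

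Other genes of RNA work stand in the authors' deposited table under other categories or under none. A search for them was made after the annotation was seen. It took words for splicing, RNA helicases, RNA binding, ribonucleoproteins, pseudouridine synthases and RNA methyltransferases. The domains DEADc, FtsJ and PseudoU, or a category of the rule named after another, also counted. This search found 15 genes, 13 higher and 2 lower in UV-B. The DEADc genes below that are no members are among the 15. As for the members, only listed genes could be found, and 49.8% of all listed genes that are no members were higher. No test was made of this count or of the next. With the members, 13 listed genes carry the DEADc domain, 11 of them higher and 2 lower. The 4 that are no members include Cre07.g349300, whose category names DNA synthesis before RNA helicase, with 19.8 ± 3.68 in UV-B and 8.14 ± 0.576 in no UV-B cultures (SD, n = 3 each). They also include Cre03.g166650, described as a DNA or RNA helicase, with 7.63, 10.8 and 9.28 in the UV-B cultures, against 2.52, 2.11 and 1.83 in the no UV-B cultures, a difference of 1.69 ± 0.17.

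A heterogeneous nuclear ribonucleoprotein gene (Cre17.g741850), of a family that binds nascent transcripts, averaged 62.5 ± 7.12 in UV-B and 20.8 ± 2.22 in no UV-B cultures. The splicing factor 3a subunit gene Cre06.g252700, part of the U2 particle of the spliceosome, averaged 15.7 ± 2.73 in UV-B and 7.18 ± 0.197 in no UV-B cultures (SD, n = 3 each). A pair of chloroplast RNA factors were higher as well. Nac2 (Cre10.g456300), which stabilises the psbD messenger RNA of photosystem II, averaged 99.0 ± 5.75 in UV-B and 36.9 ± 2.11 in no UV-B cultures. The gene of a PsaB RNA binding protein (Cre17.g702500) averaged 101 ± 3.73 in UV-B and 50.3 ± 2.19 in no UV-B cultures (SD, n = 3 each). The lower ones were low genes. A pseudouridine synthase gene (Cre06.g292450) averaged 0.641 ± 0.219 in UV-B and 1.37 ± 0.321 in no UV-B cultures. The gene g13807 is described as a magnesium transporter and putative mitochondrial splicing factor. Its values averaged 1.24 ± 0.453 in UV-B and 2.599 ± 0.665 in no UV-B cultures (SD, n = 3 each). Some of the higher ones were low too. Among these, the pseudouridine synthase gene Cre10.g428400 averaged 1.20 ± 0.111 in UV-B and 0.584 ± 0.306 in no UV-B cultures.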

How the data were processed

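The labels' protocols give a stranded mRNA kit and 400 ng of RNA per library. The submitters' processing notes name edgeR 3.4.2, HTSeq 0.5.3p9 and TopHat2. For genome build, gene models and strand setting, the sources used here give nothing. Deposited by the authors were a normalised signal per gene (reads divided by an effective library size) and a table of log2 fold changes, log2 CPM and p-values with false discovery rates, per the file headers.

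Groups came from the titles. Members and lists were chosen with earlier results of these data known. Deposited values were whole multiples of 1 read within 0.01 reads (100% per library, 0.0828 to 0.132 per read), and in no UV-B replicate 3 that step came from the spacing of values. The 13415 genes that reached a value of 1 in 3 or more libraries were fitted with limma 3.58.1 in R 4.3.3, with a mean-variance trend, on log2(value + 1), with Benjamini-Hochberg adjustment. All 39 members passed this filter, and 34 were at 1 or more in every library. Scripts were tested on simulated data. edgeR 4.0.16 and DESeq2 1.42.0 were run on recovered reads and called 7943 and 6832 genes in that order, against 7920 with limma. Counting error limits low genes.

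Values in every library are given for 23 members, by rule: the 8 largest differences in each direction, the largest difference and highest value of each category, and the 3 nearest to the authors' threshold. The other 16 are given by means or reads. A wider list of RNA genes was planned from reference names, but the RefSeq table (assembly Chlamydomonas_reinhardtii_v5.5) matched 34 of 39 members and gave 0 symbols. It was used for neighbours only, and no sequences or coordinates are printed. Columns left unused numbered 0.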

Additional observations from a re-analysis of the deposited data

How the results depend on the processing

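In each of 17 alternatives, every member that could be fitted kept its direction, which the choice of members largely fixes. The count of higher members was 28 of 39 in all of them except a minimum value of 5, which left 34 members with 25 higher. Calls over all genes were 7920 of 13415 genes tested as reported. They were lowest at 6396 with a minimum value of 5, which tested only 9568 genes, and highest at 8102 with a replicate block. With 1 library left out they ran from 7242 to 7565. The near-equal split of 3955 higher and 3965 lower genes depends on the scaling: with equal library totals it was 4538 higher and 3191 lower, with a median difference of 0.09 over all genes. Members with at least a 4-fold difference numbered 2. They were 0 with a pseudocount of 5, 5 with edgeR and 5 with DESeq2 on recovered reads, and 1 to 2 with 1 library left out. The pseudocount shrinks low genes by construction. Of 391 values of named members, 44 moved by more than 1 SD and 0 reversed, with 20 of the 44 under a pseudocount of 5. The 391 include 23 values each from no filter, a minimum value of 5, no trend and the replicate block. These settings cannot change a member's difference, so those values could not move.

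Whether replicate numbers in the titles pair the cultures cannot be settled with so few libraries. Deviations of same-numbered libraries correlated at 0.045, 0.024 and 0.120 across genes, and those of other pairs at -0.101 to 0.060. UV-B replicate 2 correlated best with another number. With the replicate block, 8102 genes were called over all genes, 28 members were higher and 2 reached a 4-fold difference. The planned counts for a wider RNA list had no members and were not run.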

Other observations

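Among 54 gene positions next to a member in the RefSeq order that are in the expression table, 0 hold another member, and 6 hold a gene that the authors list as changed. This is 11.1% of the 54, and the authors list 19.3% of the 13452 genes in the expression table. The sets behind these shares are unlike, since only 9922 of the 13452 genes matched the RefSeq order and could be neighbours. The values of the 6 are given without a test. Beside the helicase Cre02.g118300, the unannotated gene Cre02.g118350 had normalised read counts of 0.188, 0.103 and 0.249 in the UV-B cultures, against 6.69, 7.26 and 7.40 in the no UV-B cultures. Beside the lower RNA binding gene Cre01.g038650, Cre01.g038600, which encodes a fatty acid desaturase of the chloroplast, averaged 712 ± 18.9 in UV-B and 189 ± 10.2 in no UV-B cultures (SD, n = 3 each). Beside Cre08.g384950, Cre08.g384900 averaged 9.81 ± 0.347 in UV-B and 24.4 ± 1.03 in no UV-B cultures. Beside the poly(A) polymerase gene Cre09.g403000, the phosphatase gene Cre09.g403050 averaged 13.5 ± 1.21 in UV-B and 28.1 ± 1.59 in no UV-B cultures. Beside Cre17.g698950, the phosphate acetyltransferase gene Cre17.g699000 averaged 1.93 ± 0.292 in UV-B and 5.48 ± 0.731 in no UV-B cultures. Beside the lower helicase Cre01.g028200, Cre01.g028250, a putative lysophospholipase gene, averaged 14.3 ± 0.350 in UV-B and 28.9 ± 1.28 in no UV-B cultures (SD, n = 3 each). The strand setting of the counting is not given, and a part of overlapping transcripts in these values was not tested.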
